A study of Caenorhabditis elegans with 2 samples.

Results

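The ceh genes are the Caenorhabditis elegans homeobox genes that carry a numbered ceh name, and their regions of NHR-10 signal in L2 larvae are described here. Every protein-coding gene of the Ensembl WBcel235 annotation named ceh followed by a number was taken, which gave 63 of 19973 genes on the nuclear chromosomes. A region of the deposited ce11 lists was counted at a gene when its summit, the deposited point of highest signal, lay in the gene body or within 2000 bp of any annotated transcription start site (TSS). These positions form the gene window below.

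NHR-10, a nuclear hormone receptor, was mapped by chromatin immunoprecipitation sequencing (ChIP-seq) of whole larvae. The strain, OP239, has the genotype unc-119(ed3) III; wgIs239, and carries a stable transgene that expresses NHR-10 fused at its C-terminal end to GFP and FLAG. Both replicates share this genotype and stage, both sexes were pooled, larval age is given as unknown, and the 2 replicates were separate biosamples. There is 1 group, so no groups were compared, and the control library was not analysed here.

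Homeobox genes encode transcription factors that bind DNA through the homeodomain. In the worm they are best known for setting neuron identity, patterning the body axis and specifying muscle, pharynx and epidermal cells. Nuclear hormone receptors bind DNA through zinc fingers, and NHR-10 is best known as a regulator of propionate metabolism.

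The pooled list held 30000 regions, with a lowest signal of 6.00, a median of 8.38 and a highest of 218. The replicate 1 list held 22993 regions with a median of 3.12, and the replicate 2 list 30000 with a median of 6.86. The optimal IDR thresholded list, made by the authors through rank agreement between replicates, held 491 peaks from signal 27.4 upward, and each of them was found in the pooled list. Signals are the authors' own values and were read within 1 list. Rank 1 is the highest signal of a list. The lists hold no read counts, so depth is unknown and no error could be put on a single signal.

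The 5 stretches of sequence printed here, from ceh regions of high signal, show what lies under or beside these summits. They are the plus strand of WBcel235 from the RefSeq assembly, in lower case. Capitals mark any of 7 searched hexamers on either strand, namely the homeodomain core site TAATTA, the nuclear receptor half-site AGGTCA, its variant form AGTTCA, the repeat GAGAGA, the GATA factor site TGATAA, the E-box CACGTG and the word GACGCA. Windows are 200 bases around the summit. For ceh-38, whose summit lies in an untranslated exon, the 124 bases of the region that precede the gene are given.
ceh-38, II:6951402-6951525: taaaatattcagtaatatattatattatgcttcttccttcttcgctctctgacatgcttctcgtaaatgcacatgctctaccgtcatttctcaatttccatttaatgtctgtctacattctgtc
ceh-60, X:6522799-6522998: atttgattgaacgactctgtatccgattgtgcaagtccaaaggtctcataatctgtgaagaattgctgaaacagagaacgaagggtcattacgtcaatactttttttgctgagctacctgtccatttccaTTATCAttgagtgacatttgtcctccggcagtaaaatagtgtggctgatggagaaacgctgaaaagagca
ceh-20, III:6978966-6979165: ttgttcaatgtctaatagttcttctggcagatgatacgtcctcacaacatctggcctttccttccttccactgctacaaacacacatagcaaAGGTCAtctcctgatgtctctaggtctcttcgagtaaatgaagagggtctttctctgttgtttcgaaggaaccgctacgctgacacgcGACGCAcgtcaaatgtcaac
ceh-58, II:10369650-10369849: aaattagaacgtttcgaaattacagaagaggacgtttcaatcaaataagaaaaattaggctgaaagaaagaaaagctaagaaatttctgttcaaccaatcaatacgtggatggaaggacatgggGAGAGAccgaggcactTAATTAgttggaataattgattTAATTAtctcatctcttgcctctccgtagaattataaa
ceh-1, X:4654379-4654578: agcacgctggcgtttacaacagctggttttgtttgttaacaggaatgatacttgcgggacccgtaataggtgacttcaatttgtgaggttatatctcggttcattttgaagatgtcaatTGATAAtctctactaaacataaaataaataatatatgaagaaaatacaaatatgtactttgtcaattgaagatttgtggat

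Only 1 ceh gene, ceh-5, had a thresholded peak in its window, and the other 62 had none. That is 1 of 63 genes (1.59%), against 3.59% of all protein-coding genes. A pooled region of any signal was present at 48 of 63 ceh genes (76.2%), against 73.8% of all genes. The ceh genes were therefore covered by pooled regions about as often as other genes. Among genes with a region, the median of the highest signal was 8.85 for the ceh genes and 9.95 for all genes. A pooled region of rank 1000 or better was present at 4 ceh genes (6.35%, against 6.51% of all genes), one of rank 3000 or better at 8 (12.7% against 16%) and one of rank 10000 or better at 17 (27% against 38.9%). The ceh genes have longer bodies than genes in general, with a median of 2652 bp against 2027 bp, so their windows are larger (median 4875 bp against 4182 bp). Per 10 kb of window there were 2.66 pooled regions at ceh genes and 3.13 over all genes. No set test was run on these counts.

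**Figure D1:**
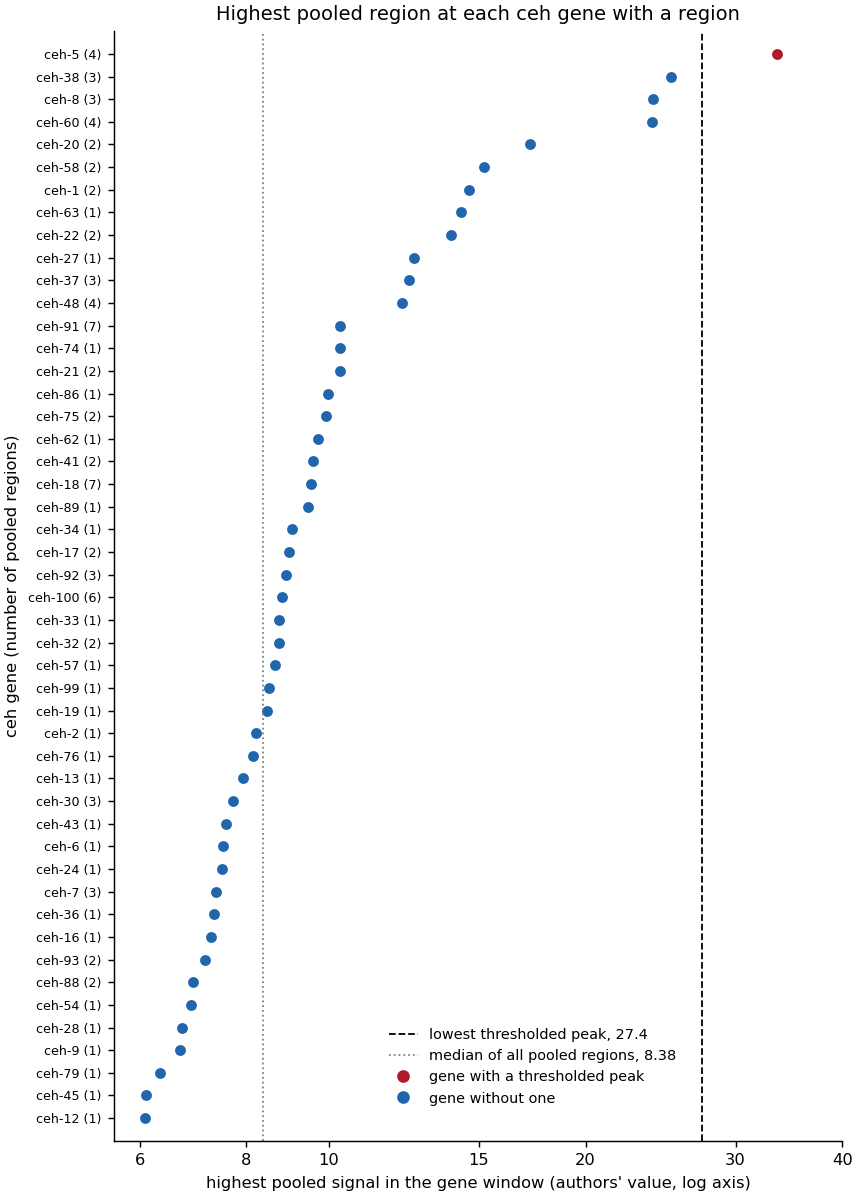
Highest pooled signal (authors' value, log axis) in the window of each of the 48 ceh genes with a region, with the number of pooled regions in brackets. The point of ceh-5 at 33.5 lies to the right of the dashed line at 27.4, the lowest thresholded peak, and 18 genes lie left of the dotted line at 8.38, the median of all pooled regions. That median is over single regions, while each point is the highest region of a gene.

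**Figure D2:**
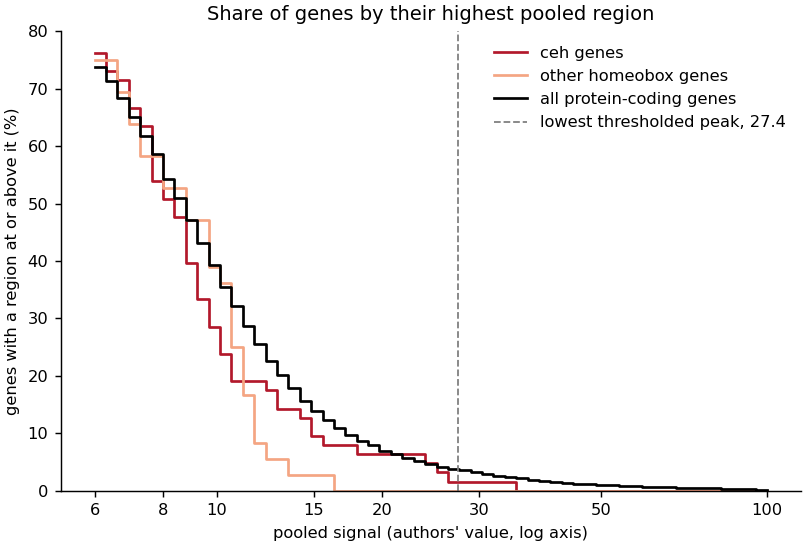
Percentage of genes (vertical axis) whose highest pooled region reaches a given signal (horizontal log axis), for 63 ceh genes, 36 other homeobox genes and 19973 protein-coding genes, with genes lacking a region kept in the total. The curves start at 73.8% to 76.2%, and the curve of other homeobox genes ends at a signal of 16.

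The thresholded peak at ceh-5, a homeobox gene related to the vertebrate VAX genes, had its summit on I at 9725508, 1661 bp upstream of the TSS. Its signal was 33.5, at rank 315 in the pooled list. Replicate 1 had a summit within 100 bp with signal 8.84 and rank 488, and replicate 2 had one with signal 24.4 and rank 378. Both ranks are inside the 491 highest regions of their lists. The ceh-5 TSS is the nearest protein-coding TSS, but the summit also lies inside 2 other genes. It is in an untranslated exon of eat-16, which encodes a regulator of G protein signaling, and in an intron of ocrl-1, which encodes an inositol phosphatase. The data do not assign the peak to any of the 3 genes. The other 3 pooled regions in the ceh-5 window had signals of 10.2, 8.99 and 6.58, and all of them also lay in the ocrl-1 window. The first was in an untranslated exon of eat-16 too, and the last was 40 bp from the ocrl-1 TSS, its nearest. Another thresholded peak, of signal 33.9 and rank 307, lay 4702 bp upstream of ceh-5 on I at 9722467, outside the window, where eat-16 has the nearest TSS.

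In all, 3 ceh genes had a region a little below the lowest thresholded signal of 27.4. The first is ceh-38, a ONECUT factor, one of a group known for broad expression in neurons. Its region on II at 6951597 had signal 25.2 and rank 594. The summit lay 71 bp inside the gene and 22 bp from the nearest of its annotated TSSs. The TSS of the divergent gene malt-1, which encodes a paracaspase, was 297 bp away. Replicate 1 had a matching summit with signal 7.78 and rank 744, and replicate 2 one with signal 17.4 and rank 859. Apart from ceh-5 and ceh-38, no ceh gene had a pooled region matched at better than rank 1000 in both replicates. The printed stretch of this region held none of the 7 hexamers, and neither did its 200-base summit window.

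The second, ceh-8, is a paired-like gene related to vertebrate Rax. Its highest region, on I at 8245437, had signal 24 and rank 669. The summit lay 68 bp beyond the 3′ end of ceh-8 and entered its window through an internal TSS 1530 bp away. The nearest TSS, at 474 bp, was that of the collagen gene col-63. Replicate 2 had this summit with signal 22.6 and rank 441, inside its 491 highest regions. Replicate 1 had no summit within 100 bp, so the region rests on 1 replicate. The highest replicate 1 region at ceh-8 was elsewhere, on I at 8246145, with signal 5.27 and rank 2821.

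The third, ceh-60, encodes a PBC-class factor known from work on yolk protein genes and lipid storage in the intestine. Its region on X at 6522899 had signal 23.9 and rank 675. The summit was in an intron, 303 bp from the 3′ end of the gene and 7247 bp from the ceh-60 TSS, and in no other gene's window. The nearest TSS was that of ets-4, at 3080 bp. Replicate 1 had a matching summit with signal 4.88 and rank 3643, and replicate 2 one with signal 14.5 and rank 1475. The other 3 pooled regions at ceh-60 had signals of 9.27, 7.15 and 6.26, the first of them 685 bp upstream of the TSS. The printed window held TGATAA on the minus strand, read as TTATCA.

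**Figure D3:**
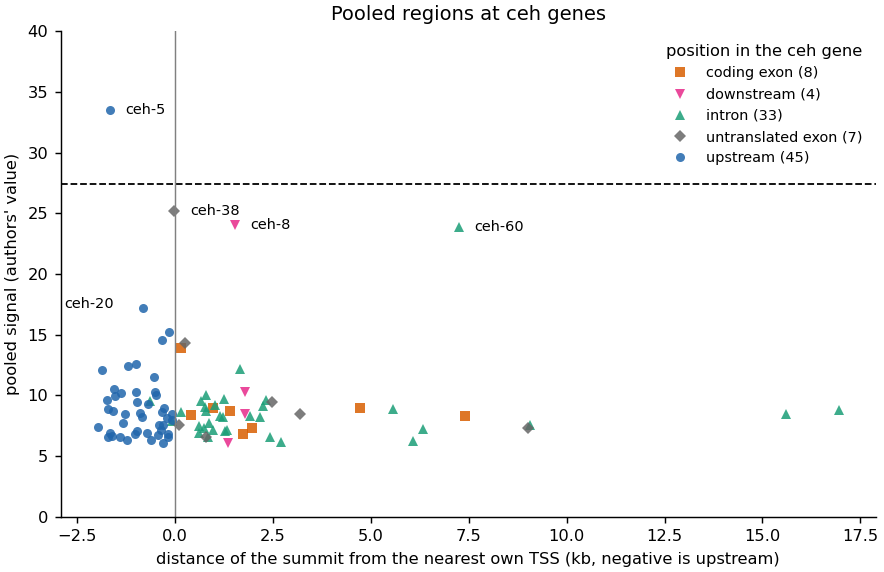
Pooled signal of the 97 gene and region pairs at ceh genes against the distance from summit to the nearest own TSS in kb (negative is upstream), with symbols for the position in the gene. Only ceh-5 lies above the dashed line at 27.4, and ceh-38, ceh-8 and ceh-60 lie just under it at 3 different kinds of position.

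At each of the next 8 genes by signal, the TSS nearest to the highest region was that of the ceh gene itself. ceh-20, the worm PBC-class partner of Hox proteins, had its highest region (signal 17.2, rank 1633) on III at 6979066, which is 818 bp upstream. Replicate 2 had a matching summit of signal 15.4 and rank 1236. Replicate 1 had none within 100 bp, but just beyond that limit it had one at 6978956 (signal 2.82, rank 13932). The printed window held AGGTCA close to the summit and GACGCA towards its right end. ceh-58 had signal 15.2 at 153 bp upstream, matched in replicate 2 (rank 2661), while replicate 1 had no region in its window. Its printed window held TAATTA at 2 places and GAGAGA once.

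The next regions were at ceh-1, ceh-63, ceh-22 and ceh-27. ceh-1, an NK-1 type gene, had signal 14.6 at 322 bp upstream, matched in replicate 1 at rank 16599. A second ceh-1 region 530 bp upstream had signal 11.5 and was matched in replicate 2 at rank 2045. That replicate 2 summit, on X at 4654622, lay between the pooled summits at 4654479 and 4654687. ceh-63 had signal 14.3 in an untranslated exon. ceh-22, an NK-2 type gene of pharyngeal muscle, had signal 13.9 in a coding exon, matched at rank 13864 in replicate 1 and rank 2755 in replicate 2. ceh-27, also an NK-2 type gene, had signal 12.6 at 996 bp upstream and was matched at rank 2502 in replicate 1 and rank 6800 in replicate 2. ceh-37, an OTX gene of sensory neurons, had signal 12.4 at 1208 bp upstream, with a replicate 2 summit at rank 29785 and no replicate 1 match.

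The highest gene, ceh-5, was in none of the listed subfamilies. The subfamily counts are small and stand beside the 73.8% of all genes with a pooled region. Of 6 ONECUT genes 4 had a pooled region, with highest signals of 25.2 at ceh-38, 12.2 at ceh-48, 10.3 at ceh-21 and 9.59 at ceh-41. The ceh-41 region, on X at 1850420, was also counted at the adjacent ceh-21, and is the 1 region shared by 2 ceh genes. ceh-39, known as an X signal element in sex determination, and ceh-49 had none. Of 3 PBC genes, ceh-60 and ceh-20 had regions and ceh-40 had none. Of 7 NK genes 6 had a region, from 14.6 at ceh-1 down to 6.69 at ceh-9. All 3 sine oculis-type genes, which act in head and pharynx development, were near the ceh median of 8.85, at 9.06 for ceh-34, 8.74 for ceh-33 and 8.73 for ceh-32.

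The remaining listed subfamilies are given by the highest signal of each gene. The like median over genes with a region was 8.85 for the ceh genes and 9.95 for all genes. The Hox gene ceh-13, an ortholog of labial, had 1 pooled region of signal 7.94, and neither replicate list had a region in its window. The engrailed gene ceh-16 reached 7.27, the Distal-less gene ceh-43 reached 7.58, the EMX gene ceh-2 reached 8.22 and the MNX gene ceh-12 of motor neurons reached 6.09. Of the POU genes, ceh-18 reached 9.53 and ceh-6 reached 7.52. Of the OTX genes, ceh-37 reached 12.4 and ceh-36 reached 7.33. The Bar gene ceh-30 reached 7.71 and its neighbour ceh-31 had no pooled region. Of the listed paired-like genes, ceh-8 reached 24, ceh-17 reached 8.97 and ceh-45 reached 6.10, and ceh-10, a regulator of interneuron fate, had none. The LIM gene ceh-14 had none. The CUX gene ceh-44, though listed, matched no gene name in the annotation used, and was not counted. The other 28 ceh genes were not assigned to a subfamily in the list used here. Of them 20 had a region, beside 73.8% of all genes.

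The median number of pooled regions per gene was 1 for the ceh genes and 1 over all genes. A single pooled region was found at 25 genes, 11 genes had 2, and 12 had 3 or more. The most were 7 regions at ceh-18 and at ceh-91, and 6 at ceh-100. These genes are long, with bodies of 14431, 7249 and 21503 bp, and none of their regions had a signal above 10.3. Next came ceh-5, ceh-48 and ceh-60 with 4 each. Over the 96 distinct regions the median signal was 8.46, against 8.40 for the 25661 distinct regions at any protein-coding gene. Upstream positions held 45 of the 97 gene and region pairs and introns 33, with median signals of 8.48 and 8.27. Coding exons held 8, untranslated exons 7 and sequence downstream of the gene 4. The highest region had the ceh gene's own TSS as the nearest one at 37 of 48 genes, and at 17 of 48 it also lay in the window of another gene. These counts by number of regions, position, nearest TSS and shared window were not made over all genes, so they do not set the ceh genes apart.

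At the window limit of 2000 bp the signals did not stand apart. Just inside, ceh-48 had a region of signal 12.1 at 1873 bp and ceh-7 one of 7.38 at 1964 bp. Just outside, ceh-23 had one of 10.1 at 2028 bp and ceh-1 one of 15.6 at 2040 bp.

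No pooled region was found at 15 ceh genes (23.8%), against 26.2% of all genes. They were ceh-10, ceh-14, ceh-23, ceh-31, ceh-39, ceh-40, ceh-49, ceh-51, ceh-53, ceh-81, ceh-82, ceh-83, ceh-84, ceh-87 and ceh-90. Of these, 5 had no region in either replicate list, namely ceh-23, ceh-81, ceh-82, ceh-83 and ceh-84. In the others, ceh-14 held the highest replicate 1 region (signal 6.5, rank 1399), and replicate 2 had no region at ceh-14. ceh-81, ceh-82, ceh-83, ceh-84 and ceh-87 all lie between 1730403 and 2684308 on II, where 6 ceh genes are annotated. The remaining one, ceh-86, had 1 region of signal 9.99. That stretch, chosen after the values were seen, held 15.8 pooled regions per 100 kb against 29.1 over chromosome II. Of its 248 protein-coding genes 52.0% had a pooled region, against 71.1% on the whole chromosome.

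By chromosome, all 8 ceh genes on I had a pooled region, as did 8 of 13 on II, 6 of 8 on III, 3 of 4 on IV, 10 of 12 on V and 13 of 18 on X. Among all genes the share was 76.5% on I, 71.1% on II, 82.5% on III, 72.7% on IV, 66.8% on V and 79.8% on X. With so few ceh genes per chromosome, these counts do not set any chromosome apart. The highest ceh signal was 33.5 on I, 25.2 on II, 17.2 on III, 12.2 on IV, 13.9 on V and 23.9 on X.

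The replicates covered the ceh genes to different extents. In replicate 1, 42 of 63 genes (66.7%) had a region, against 65.9% of all genes, and in replicate 2, 50 (79.4%) had one, against 74.1%. Regions in all 3 lists were found at 31 ceh genes, a count that was not made over all genes. Of the 96 distinct pooled regions, 22 (22.9%) had a replicate 1 summit within 100 bp and 68 (70.8%) a replicate 2 summit, and 12 (12.5%) had both. Over all 30000 pooled regions the shares were 26.0%, 65.3% and 12.7%. The pooled regions at ceh genes thus had replicate matches about as often as any pooled region. The 12 matched regions belong to 11 genes. The highest region of a gene was matched in both replicates at 9 genes, which were ceh-5, ceh-38, ceh-60, ceh-22, ceh-27, ceh-21, ceh-34, ceh-17 and ceh-33. It was matched in neither at 6, which were ceh-48, ceh-75, ceh-13, ceh-16, ceh-54 and ceh-28. The counts of 9 and 6 genes were not made over all genes. The 100 bp limit was not varied, and a replicate region can lie just beyond it. At ceh-48 the pooled summit was on IV at 6813779, and replicate 2 had one at 6813672 (signal 9.87, rank 5312). Near the highest regions of ceh-16 and ceh-75, replicate 2 also had summits, at 8623783 and 9919966.

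**Figure D4:**
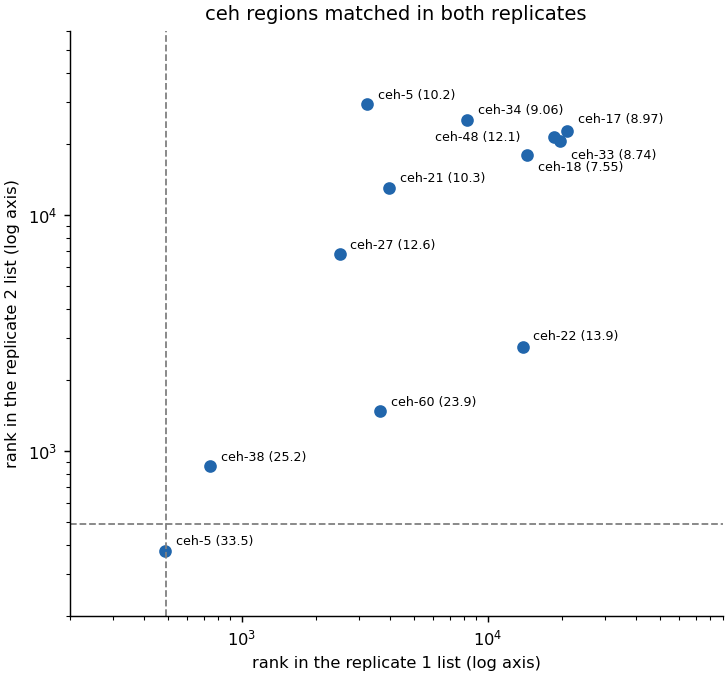
Rank in the replicate 1 list against rank in the replicate 2 list (log axes, smaller is higher signal) for the 12 pooled regions at ceh genes with a summit within 100 bp in both, labelled by gene and pooled signal. Dashed lines mark rank 491, and only the ceh-5 region of signal 33.5 is at or inside both.

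The 491 highest regions of each replicate list were also read for ceh genes. In replicate 1 they included ceh-5 alone (1.59%, against 3.09% of all genes), and in replicate 2 ceh-5 and ceh-8 (3.17%, against 3.52%).

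The 36 listed homeobox genes that have other names are given for comparison. None had a thresholded peak (against 3.59% of all genes) and 27 had a pooled region (75.0%, against 73.8% of all genes). Windows were larger at these genes (median 6982 bp against 4182 bp over all genes), with 2.63 pooled regions per 10 kb against 3.13. A region of rank 3000 or better was present at 1 of them (2.78%, against 16% of all genes). One of rank 10000 or better was present at 13 of them (36.1% against 38.9%). Their median highest signal was 9.71, against 9.95 for all genes with a region. The highest was 16 at lin-39, the mid-body Hox gene, on III at 7533040 in an intron (rank 1998, and rank 1991 in replicate 2). unc-62, the MEIS partner of PBC factors, followed with 13.4 and hmbx-1 with 12.2. In replicate 1 alone psa-3, also a MEIS gene, had a region of signal 11.2 and rank 232 on X at 15409436, which had signal 11.3 and rank 6359 in the pooled list. The highest replicate 2 region at psa-3 was at another site and ranked 9799. psa-3 was singled out after its values were seen.

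Sequence at the ceh regions was closer to the pooled list than to the thresholded peaks in GC content and in the share of each hexamer other than AGGTCA. Only 1 of the 96 ceh regions is a thresholded peak, so a likeness to the pooled list was largely set in advance. Median GC content of the 200-base windows was 33.2% over the 96 ceh regions, 35.0% over all pooled regions and 44% over thresholded peaks. GAGAGA was in 13 of 96 ceh windows (13.5%), against 13.8% of pooled and 39.7% of thresholded windows. GACGCA was in 6 (6.25%), against 5.67% and 29.1%. TAATTA was in 14 (14.6%), against 9.18% and 5.30%. AGTTCA was in 16 (16.7%), against 12.7% and 5.50%, and AGGTCA was in 3 (3.12%), against 4.86% and 4.68%. TGATAA was in 17 (17.7%), against 19.1% and 9.57%, and CACGTG was in 2 (2.08%), against 3.80% and 8.55%. The window of the ceh-5 peak held both GAGAGA and GACGCA. Both strands were searched, TAATTA and CACGTG read the same on both, and no test was run. Hexamer content moves with GC content, and its part in these shares was not tested.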

How the data were processed

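The deposited region lists on ce11 were in narrowPeak layout, and the signal value of each region is the authors' own. Per the deposited notes, a replicate list rests on the alignment of that replicate and a control, the pooled list on the alignments of both with the control, and the thresholded list on these 3 lists. The caller, the aligner, the scaling of the signal and the IDR cutoff are not given in the sources used here. The lists on ce10 were not used. Gene models came from Ensembl release 115 on WBcel235, the assembly of ce11, and sequence from RefSeq.

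Summits were counted in the window of every protein-coding gene, so a region can count for several genes. Replicate summits were matched within 100 bp. Ranks were taken within 1 list, and no mean was made over replicates. Named were the ceh genes with a thresholded peak, the 10 highest without one, those with no region, those with the most regions and the members of the subfamilies. The members, lists and hexamers were chosen with earlier results of these data known. The window search was tested on simulated data. Python 3.11.15, numpy 2.4.6, pandas 2.3.3 and matplotlib 3.10.9 were used.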

Additional observations from a re-analysis of the deposited data

How the results depend on the processing

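The count of ceh genes with a thresholded peak was 1 in the main setting (1.59%, against 3.59% of all genes). It was 0 with 1000 bp around each TSS (2.72% of all genes). In the 50% of thresholded peaks of highest signal it was also 0 (1.84% of all genes). It stayed at ceh-5 alone (1.59%) with 5000 bp, where the share of all genes was 6.17%. With the body left out it was again ceh-5 alone, against 3.46% of all genes. The same held with each summit given only to the nearest TSS (2.03% of all genes) and with any base of the region counted (3.82%). With 1 replicate left out it ran from 1 to 2, the second gene being ceh-8 in the highest regions of replicate 2. The count of genes with any pooled region, 48, ran from 41 to 54 over the gene windows tried. With 5000 bp the ceh share was 85.7% against 91.1% of all genes, below it rather than above it as in the main setting (76.2% against 73.8%). Single replicate lists, which have other lowest signals, were read in place of the pooled list. Replicate 1 had a region at 42 ceh genes (66.7%, against 65.9% of all genes) and replicate 2 at 50 (79.4%, against 74.1%). The median highest signal, 8.85, was 8.80 with 1000 bp, 9.89 with 5000 bp, 8.73 with the body left out, 8.74 with the nearest TSS only and 8.90 with any base counted. Over all genes the corresponding medians were 9.74, 11.1, 9.79, 9.49 and 10.1, each above that of the ceh genes. No paired analysis was possible because there is 1 group and no test between samples. Depth is unknown, so a gene without a region may hold signal below the lowest value listed.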
